A study of Mus musculus with 17 samples.

Results

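The response of mouse CD44hi memory CD4 T cells to retinoic acid (RA), the active acid form of vitamin A, was measured on 6 of the series' 17 arrays. These are the 3 arrays of memory cells activated with RA and the 3 arrays of memory cells activated without it, chosen by their titles, and the arrays that carry the same number were treated as a pair. The cells were CD4+ T cells sorted as CD44hi CD62L- CD25- from spleen and lymph nodes (mesenteric and cervical) of male C57BL/6 mice aged 6 to 10 weeks, and each array holds RNA of 3 pooled mice. In both groups the memory cells were activated for 48 hours with beads carrying antibodies to CD3 and CD28, IL-2 at 20 U/ml and TGF-beta at 10 ng/ml. Naive CD4 T cells shared the well at 2 memory cells to 1 naive cell, and the memory cells were sorted out again afterwards by a congenic form of CD45. The groups differ by RA at 100 nM against none. TGF-beta, IL-2 and naive cells were thus present in the controls too, and the measured difference is that of RA on top of them, in cells that could also receive signals from naive cells exposed to RA. The other 11 arrays come from a separate co-culture experiment with dendritic cells (DC), and 4 of them serve for comparison. These 4 hold Foxp3+ cells from C57BL/6 Foxp3/GFP reporter mice aged 6 to 10 weeks, with 3 mice per array. Their cultures ran for 5 days with spleen DC and TGF-beta at 0.6 ng/ml, with RA at 100 nM or none.

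RA is made from dietary vitamin A by retinal dehydrogenases, which certain DC and stromal cells of the gut express. It enters T cells and binds heterodimers of RA receptors and retinoid X receptors, which sit on DNA and exchange co-repressors for co-activators when ligand is bound. In T cells RA is known for imprinting gut homing receptors, for favouring induced Foxp3+ regulatory cells over Th17 cells together with TGF-beta, and for effects on the cytokines that effector cells release. Memory cells are a known source of cytokines that act on naive neighbours in the same culture.

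The sorted cells carried the transcripts of CD4 T cells. All 11 measured genes of a CD4 T cell list lay above the array median on all 6 arrays, as did 7 of 8 genes of antigen-experienced cells. None of 4 genes of CD8 T cells, 6 of NK cells, 3 of erythroid cells or 9 of stromal cells lay above the median on every array. The other lists were partly above it, with 2 of 9 genes for B cells, 2 of 4 for plasma cells, 5 of 13 for DC or macrophages, 2 of 7 for neutrophils and 2 of 4 for gamma delta T or NKT cells. Naive T cell genes were present as well, 8 of 10 above the median on all 6 arrays, and their part in the results was not tested. The summed intensity of the B cell list ran from 534.8 to 867.6 without RA and from 519.7 to 815.1 with RA, and that of the DC and macrophage list from 714.4 to 1089 and from 761.6 to 1059. That of the CD4 T cell list ran from 11100 to 11930 without RA and from 12370 to 13200 with RA, with no overlap, and that of the antigen-experienced list from 8262 to 10990 and from 6105 to 8296. The part of these shifts in the results was not tested. The arrays numbered 3 stood apart in both groups. Their rank correlation with the other arrays was 0.9135 to 0.937, against 0.9753 to 0.9817 between numbers 1 and 2 and 0.9745 to 0.9885 within a pair, and 2243 of 12062 genes tested differed at least 2-fold between the arrays numbered 3 and the other 4. For this reason groups can overlap for a gene that moved the same way in every pair.

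RA raised Itga4, the alpha chain of the gut homing integrin, the gut chemokine receptor Ccr9 and Cyp26b1, an enzyme that breaks down RA. It lowered the cytokines Il9, Il10, Il21, Il4 and Ifng, and it lowered many genes of glycolysis, of the hypoxia response and of the amino acid response. None of the tested genes of the respiratory chain and ribosome production passed. Cell cycle genes passed at 4.44%, near the 4.94% of all genes tested. Differences are given on the log2 scale as RA minus control with the standard error (SE) of a paired limma fit on 3 pairs, and genes are said to rise or fall where the Benjamini-Hochberg adjusted p over all 12062 genes was under 0.05. In this fit 596 genes, or 4.94% of those tested, passed, 314 higher (2.6%) and 282 lower (2.34%) with RA, and all 596 moved the same way in all 3 pairs. Of them 226 differed at least 2-fold (1.87%). Of these 122 rose (1.01%) and 104 fell (0.862%), and 13 rose and 14 fell at least 4-fold. For 373 of the 596 the 3 arrays of one group all lay beyond the 3 of the other, which held for 7.81% of all genes tested, and for 223 the groups overlapped. Counts of gene lists below are to be read beside the 4.94% of all genes tested that passed. The lists were drawn up with earlier results of these data known, so a larger share is not an independent test. The calls depend on setting the arrays numbered 3 apart. Without the pair term 10 genes passed, 0.0829% of those tested (limma, 495 with an unadjusted p under 0.05), whereas 531 passed with numbers 1 and 2 joined in the block. Numbers 1 and 2 showed no pairing between them, since the difference of control arrays 1 and 2 and that of RA arrays 1 and 2 correlated at -0.0224 across genes, which are not independent replicates. These 10 were Timd2, Itga4, Ccr9, Gfi1 and Nipal1 among the rises and Ier3, Il10, Ndrg1, Aldoc and Map3k20 among the falls. Without both arrays numbered 3, 208 genes passed, 1.72% of those tested, of which 206 were among the 596, and 202 passed when the pair term was left out as well. The text calls a rise or fall robust to leave-out where the gene still passed in each of the 3 fits that lacked 1 pair. These fits have 1 residual degree of freedom each and borrow their variance from other genes, and the one without number 3 kept the fewest of the calls, 206 against 517 and 559 without numbers 1 and 2.

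The largest rises and falls were taken from calls whose 3 pairs all moved one way, so agreement of their pairs is no separate result. Timd2, or Tim-2, a membrane receptor that binds ferritin and a semaphorin, measured 6.62, 6.66 and 6.14 without RA (arrays 1, 2 and 3, log2 intensity) and 10.72, 10.67 and 10.35 with RA. The groups lay far apart, and the rise was 17.3-fold (4.11 ± 0.13, adjusted p = 9.88e-07, limma). Gfi1, a transcriptional repressor that restrains Th17 and regulatory T cell programmes and favours Th2 cell growth, measured 6.22, 6.31 and 6.39 without RA and 9.21, 9.23 and 9.66 with RA. Its 6 values fell into 2 tight groups, an 8.34-fold rise (3.06 ± 0.13, adjusted p = 5.68e-06). Lztfl1, a regulator of ciliary protein traffic, rose from 6.88, 6.99 and 8.08 to 10.04, 9.91 and 11.36 (3.12 ± 0.13), the third array being the highest in both groups. Further rises concerned Fam102b (2.83 ± 0.13), the glucose transporter gene Slc2a2 (2.76 ± 0.25), the netrin Ntn4 (2.45 ± 0.18, a lower bound because the control arrays were near background), the interferon-inducible Mndal (2.18 ± 0.19), the putative magnesium transporter Nipal1 (1.97 ± 0.13), the beta chain gene of the IL-3 receptor Csf2rb2 (1.96 ± 0.22) and the ectoenzyme Enpp4 (1.93 ± 0.19). They also concerned Camk2n1 (1.84 ± 0.14), an inhibitor of the kinase CaMKII, the repressor Klf3 (1.78 ± 0.16), Mctp1 (1.75 ± 0.13) and Itih5 (1.73 ± 0.15).

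Among the falls, Pkib, an inhibitor of protein kinase A, measured 7.22, 7.70 and 8.44 without RA and 4.66, 3.96 and 5.05 with RA (-3.23 ± 0.21, adjusted p = 4.44e-05, limma). Every RA array was lower than every control array by over 2 log2 units. Ier3, an early response gene linked to survival, fell from 10.08, 9.60 and 9.28 to 6.76, 6.90 and 6.02 (-3.09 ± 0.16), an 8.53-fold difference. Other large falls were those of the kinase genes Alpk2 (-2.72 ± 0.31) and Map3k20 (-2.22 ± 0.13), the endocytic receptor Ly75 (-1.98 ± 0.17), podoplanin, Pdpn (-1.97 ± 0.21), the decoy IL-1 receptor Il1r2 (-1.92 ± 0.15), the myosin Myo6 (-1.89 ± 0.16), Gpm6b (-1.89 ± 0.27), Jcad (-1.87 ± 0.15), Ppp1r3b (-1.76 ± 0.15), which directs a phosphatase to glycogen, and Esm1 (-1.76 ± 0.19). All of the 25 largest rises and the 25 largest falls were robust to leave-out except Gpm6b, which did not pass without the arrays numbered 3.

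**Figure D1:**
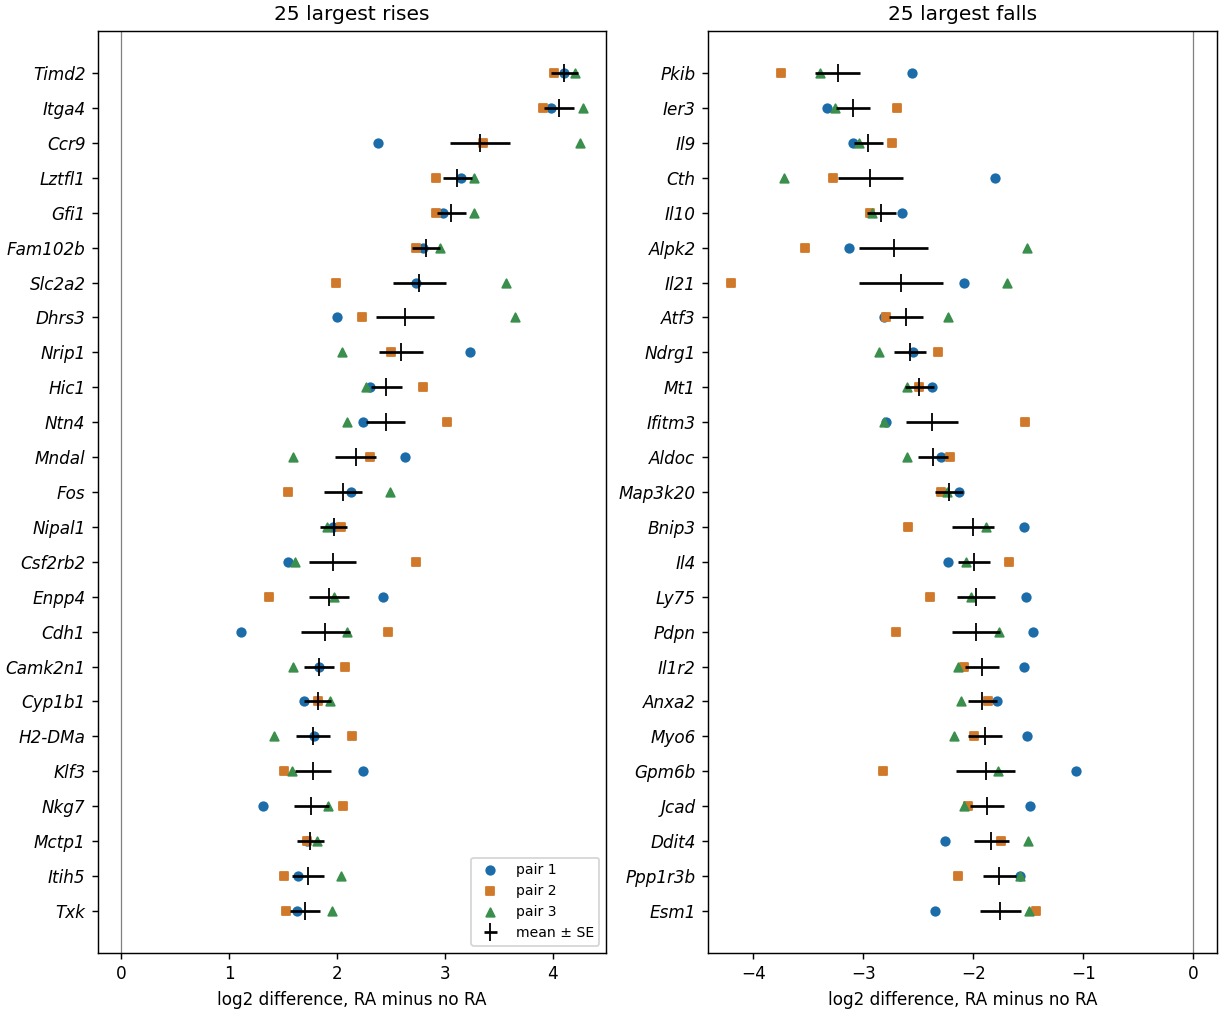
Log2 differences (RA minus no RA, x axis) of the 25 genes with the largest rise and the 25 with the largest fall among the genes that passed in the paired fit. Coloured symbols are the 3 pairs and black bars the mean ± SE. All genes that passed moved one way in all 3 pairs, so every pair of a gene shown lies on the same side of 0. The means run from Timd2 at 4.11 to Pkib at -3.23.

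Genes that handle RA rose and its receptors did not pass. Of 14 tested genes of retinoid carriers and enzymes 4 rose and 0 fell (28.6% passed), with a list median of 0.21 against 0.00 for all genes tested. Dhrs3, which reduces retinaldehyde back to retinol, measured 5.98, 6.27 and 5.03 without RA and 7.98, 8.51 and 8.69 with RA, a 6.19-fold rise (2.63 ± 0.27, adjusted p = 0.000571, limma). Cyp26b1, which degrades RA, rose from 6.55, 6.29 and 6.11 to 7.89, 7.72 and 7.81 (1.49 ± 0.13, adjusted p = 0.000294). The values of both genes did not overlap between groups. Cyp1b1, an oxidase that can act on retinoids among other substrates, rose by 1.82 ± 0.13, and Stra6, the cell surface receptor that takes up retinol from its carrier, by 1.15 ± 0.25 with overlapping groups. All 4 were robust to leave-out. Cyp26a1, the related RA hydroxylase, did not pass (0.23 ± 0.13, adjusted p = 0.45), and neither did Rdh10 (-0.38), a retinol dehydrogenase, or Rdh11 (-0.25). Crabp2 and Aldh1a2, which carry and make RA, lay under the filter on low signal.

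None of 12 tested RA receptors and related nuclear receptors passed (list median -0.01). Rarb, a classic RA target in other tissues, measured 6.62, 6.27 and 5.50 without RA and 6.22, 6.20 and 5.55 with RA (-0.14 ± 0.14). The pairs of Rarb showed no common direction. Rarg (-0.02 ± 0.13) and Rxra (-0.44 ± 0.13, adjusted p = 0.0953) did not pass either, and Rara was under the filter at 5.41 to 6.09. Of 16 genes for receptor co-repressors and co-activators 2 rose and 0 fell (12.5% passed), and both were robust to leave-out. Nrip1, a co-repressor that binds liganded nuclear receptors, measured 5.74, 6.50 and 9.24 without RA and 8.98, 9.0 and 11.28 with RA (2.59 ± 0.20, adjusted p = 0.000175, limma). The groups overlapped because array 3 was the highest of each, while the pairs differed by 3.24, 2.50 and 2.05. Hic1, a repressor that RA induces in intestinal T cells, rose 5.50-fold (2.46 ± 0.15). The co-activators Ncoa1 (-0.07), Ncoa3 (0.14) and Ep300 (-0.14) did not pass.

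Homing to the gut depends on the integrin made of the alpha 4 and beta 7 chains, which binds MAdCAM-1 on gut venules, and on Ccr9, which follows a chemokine of the small intestine. Of 13 tested genes of gut homing and mucosal retention 4 rose and 2 fell (46.2% passed, list median 0.28). Itga4, the alpha 4 chain, measured 7.56, 7.43 and 7.19 without RA and 11.55, 11.34 and 11.47 with RA. The groups lay more than 3 log2 units apart, a 16.7-fold rise (4.06 ± 0.14, adjusted p = 9.88e-07, limma). Itgb7, the beta 7 partner chain, measured 7.94, 8.11 and 8.52 without RA and 8.38, 8.41 and 8.63 with RA, overlapping values that did not pass (0.28 ± 0.13, adjusted p = 0.355), as did Itgb1 (0.28), the other partner of alpha 4. Ccr9 rose from 4.82, 4.07 and 3.78 to 7.20, 7.43 and 8.03 (3.33 ± 0.28, adjusted p = 0.000216). The control values lay near background on all 3 arrays, so the difference of Ccr9 is a lower bound. Cdh1, or E-cadherin, the epithelial ligand of Itgae, likewise rose from near background (1.89 ± 0.23, a lower bound). Itgae, the alpha chain that retains T cells at epithelium, rose by 0.97 ± 0.14. Gpr15, which directs T cells to the colon, measured 8.44, 8.20 and 7.17 without RA and 8.45, 8.28 and 7.27 with RA and did not pass (0.06 ± 0.13), and Ccr10 (-0.26), a skin and colon receptor, did not either.

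Fut4 and Fut7, the fucosyltransferases that build selectin ligands used in homing to skin and inflamed tissue, fell. Fut4 measured 8.09, 8.88 and 7.72 without RA and 6.69, 6.51 and 6.48 with RA (-1.67 ± 0.21, adjusted p = 0.0016, limma), and Fut7 fell by 1.13 ± 0.19 on the log2 scale. The values of both genes did not overlap between groups. Selplg, the protein that carries such ligands, rose (0.60 ± 0.14). Chst11 (1.57 ± 0.16) and St8sia6 (1.25 ± 0.15) rose among 28 glycan enzymes, of which 3 rose and 4 fell (25% passed). St6gal1, a sialyltransferase, fell (-1.59 ± 0.13) by its main probe set and a second probe set moved the other way. Of 16 chemokine receptor and egress genes 1 rose and 3 fell (25% passed), the falls being Ccr7 (-0.58 ± 0.13), which leads to lymph nodes, Ccr8 (-0.61 ± 0.13) and P2ry10 (-0.85 ± 0.20). Of 19 integrin and adhesion genes 2 rose and 6 fell (42.1% passed), among them Slamf7 (-0.92 ± 0.14), Slamf6 (-0.85 ± 0.14), Icam1 (-0.71 ± 0.13) and Itgal (-0.56 ± 0.13), the alpha chain of LFA-1. Without the arrays numbered 3 the counts were 3 up and 1 down for gut homing, 0 and 0 for chemokine receptors and egress and 1 up and 0 down for adhesion. Itgae, Fut7, Selplg, Ccr7, Ccr8 and P2ry10 were among the calls lost.

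Every transcript of the secreted cytokine list that passed fell. The ligands Fasl, Tnfsf11 and Tnfsf10 and the chemokine Ccl3, which rose, were counted in other lists. Of 19 tested secreted cytokines 7 fell and 0 rose (36.8% passed), 12 did not pass, 8 of the 19 had a positive and 11 a negative difference, and 6 of the falls remained without the arrays numbered 3. Il9, a growth factor for mast cells, measured 12.17, 12.00 and 10.56 without RA and 9.09, 9.27 and 7.53 with RA, a 7.74-fold fall (-2.95 ± 0.13, adjusted p = 5.68e-06, limma). Array 3 was lowest in both groups and the pair differences were alike. Il10, an anti-inflammatory cytokine, fell from 10.09, 10.31 and 10.54 to 7.44, 7.37 and 7.62, which is 7.14-fold (-2.84 ± 0.13, adjusted p = 5.97e-06). Il10 alone of the 19 passed without the pair term. Il21, the helper cytokine of germinal centres, measured 10.40, 10.79 and 9.36 without RA and 8.32, 6.59 and 7.67 with RA. Its fall of 6.31-fold (-2.66 ± 0.38, adjusted p = 0.00376) varied among pairs, from -1.69 to -4.20.

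Il4, the defining Th2 cytokine, fell from 9.21, 8.61 and 8.77 to 6.97, 6.93 and 6.70 (-1.99 ± 0.15, adjusted p = 0.000119, limma), a 3.98-fold difference with no overlap. Il13, its neighbour and companion Th2 cytokine, fell less (-0.76 ± 0.13) and was not called without the arrays numbered 3. Ifng, the Th1 cytokine, measured 10.31, 9.25 and 8.92 without RA and 8.60, 8.03 and 8.24 with RA, a 2.30-fold fall (-1.20 ± 0.19, adjusted p = 0.00521). Il24, an IL-10 family member, fell by 1.08 ± 0.15 on the log2 scale. The others did not pass, among them Il17a (7.48, 7.30 and 7.50 without RA and 7.54, 7.19 and 6.95 with RA), Tnf (0.18), Csf2 (0.27), Lif (0.47) and Tgfb1 (0.36, with a second probe set of opposite sign). Il2, Il5 and Il6 lay under the filter. Of the 7 chemokine genes above the filter Ccl3 alone passed (0.60 ± 0.13), and not without the arrays numbered 3. With no filter 2 chemokine genes passed as higher. Cxcl3, which lay under the filter and is named here after its values were seen, measured 3.16, 3.09 and 2.53 without RA and 6.02, 5.94 and 5.46 with RA, its control values being near background.

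**Figure D2:**
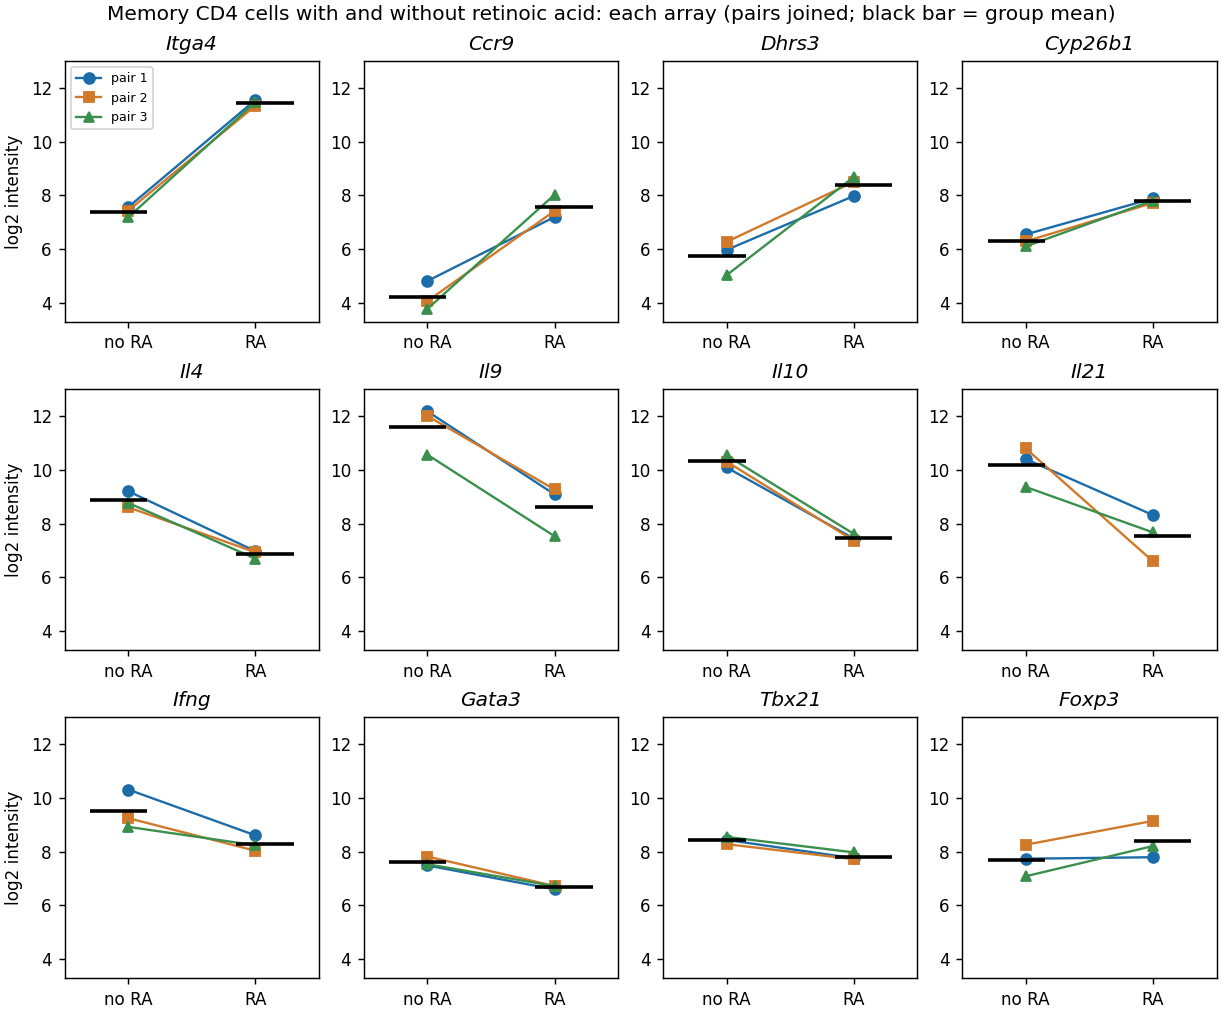
Log2 intensity (y axis) of 12 genes on each of the 6 arrays, without RA on the left and with RA on the right of each panel. Lines join the arrays of a pair and black bars are group means. Itga4, Ccr9, Dhrs3 and Cyp26b1 rise in all pairs, the cytokines, Gata3 and Tbx21 fall, and Foxp3 has pair differences from 0.05 to 1.13.

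Among the factors that define helper subsets, those of Th2 and Th1 cells fell. Gata3, the Th2 master factor, measured 7.48, 7.82 and 7.53 without RA and 6.60, 6.72 and 6.72 with RA (-0.93 ± 0.13, adjusted p = 0.00322, limma). Tbx21, or T-bet, the Th1 factor, measured 8.43, 8.28 and 8.55 without RA and 7.75, 7.72 and 7.97 with RA (-0.61 ± 0.13, adjusted p = 0.0254). Both falls were seen without overlap, and only that of Gata3 was robust to leave-out. Of 16 Th2 genes 4 fell and 1 rose (31.2% passed, median -0.22), with Nfil3 (-1.14 ± 0.13), a factor that acts on cytokine genes, among the falls and Il17rb (0.94 ± 0.15), the IL-25 receptor, as the rise, both robust to leave-out. Of 15 Th1 genes 4 rose and 1 fell (33.3% passed), the rises being Ifngr1 (1.60 ± 0.24), the IFN-gamma receptor, Fasl (1.32 ± 0.17), a death ligand, Stat4 (0.99 ± 0.13), which transmits IL-12 signals, and Id2 (0.55 ± 0.13). Of these Fasl alone kept its call without the arrays numbered 3.

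Among 17 Th17 genes 3 rose and 3 fell (35.3% passed). Ahr, a ligand-activated factor of IL-17 and IL-22 producing cells, measured 10.96, 11.40 and 12.24 without RA and 10.18, 10.00 and 11.21 with RA (-1.07 ± 0.15, adjusted p = 0.00322, limma). Il6ra, the IL-6 receptor, fell by 0.96 ± 0.22 and Fosl2 by 1.51 ± 0.13, while Tmem176b (1.31 ± 0.17), Runx1 (1.08 ± 0.16) and the kinase Sgk1 (0.82 ± 0.15) rose. Groups overlapped for Ahr, Il6ra and Sgk1, and Fosl2 and Tmem176b were robust to leave-out. Stat3 (-0.18), Il6st (-0.20), Il21r (-0.10), Maf (-0.14) and Hif1a (-0.15) did not pass, and Maf, Stat3 and Hif1a each had a probe set of opposite sign. Rnf128 (-0.51), Il18r1 (-0.73) and Il12rb2 (-0.26) also did not pass.

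Foxp3, the regulatory T cell factor, measured 7.74, 8.26 and 7.08 without RA and 7.79, 9.14 and 8.21 with RA. It was higher with RA in all 3 pairs but hardly in the first, and did not pass (0.69 ± 0.20, adjusted p = 0.0925, limma). The signature of regulatory T cells, with 26 genes tested, had 7 rises and 3 falls (38.5% passed, median 0.05). Rises included Fgl2 (1.44 ± 0.16), Nt5e (1.33 ± 0.19), the ectoenzyme CD73 that makes adenosine, Nrp1 (0.94 ± 0.13) and Gpr83 (0.80 ± 0.18), and falls were Tnfrsf9 (-0.91 ± 0.14), Il2ra (-0.68 ± 0.14), the high-affinity IL-2 receptor chain, and Cd83 (-0.67 ± 0.14). Fgl2 was the member robust to leave-out. Ctla4 measured 8.29, 8.86 and 12.62 without RA and 8.64, 8.59 and 12.41 with RA, so the arrays numbered 3 were far above the others in both groups and RA made no difference that passed (-0.04 ± 0.16). Of 24 TGF-beta genes 3 rose and 1 fell (16.7% passed). The fall was Itgb8 (-1.18 ± 0.26), whose integrin activates TGF-beta, and Smad3 did not pass (0.22 ± 0.13). None of the 4 TGF-beta calls remained without the arrays numbered 3.

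Several other transcription factors responded. Of 39 T cell transcription factor genes 3 rose and 3 fell (15.4% passed, against 4.94% of all genes tested). Satb1, a chromatin organizer, measured 10.12, 10.60 and 11.63 without RA and 8.67, 8.66 and 9.83 with RA (-1.73 ± 0.14, adjusted p = 0.000204, limma), and Prdm1, or Blimp-1, fell by 1.08 ± 0.17 without overlap. Bcl6 (0.66 ± 0.21), Irf4 (-0.54 ± 0.13, adjusted p = 0.0535) and Myc (0.02 ± 0.16) did not pass. Within the AP-1 and ATF family 2 genes rose and 4 fell of 18 (33.3% passed). Fos, the partner of Jun in AP-1, measured 8.28, 8.59 and 9.11 without RA and 10.41, 10.14 and 11.60 with RA (2.06 ± 0.18, adjusted p = 0.000247), and Jun rose by 1.20 ± 0.13. Atf3, a stress-induced repressor, fell from 9.96, 10.15 and 9.02 to 7.15, 7.36 and 6.79 (-2.61 ± 0.15), and Fosl2, Crem (-1.15 ± 0.14) and Batf3 (-0.81 ± 0.13) fell too. All of these were robust to leave-out except Batf3 and Prdm1. Other T cell receptor induced genes showed 2 rises and 3 falls of 25 (20% passed), with Egr1 (0.18) and Egr2 (0.53) not passing. Of 23 genes of MAP kinase phosphatases and Ras feedback 1 rose, Dusp6 (1.53 ± 0.15, robust to leave-out), and 3 fell (17.4% passed).

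Several genes of T cell receptor signalling and of killing rose. Of 29 T cell receptor signalling genes 6 rose and 0 fell (20.7% passed, median of the list 0.10), with Txk (1.70 ± 0.14), a Tec family kinase, and Vav3 (1.60 ± 0.21), an exchange factor, robust to leave-out, and Rasgrp1 (0.70 ± 0.13) and Cd3e (0.57 ± 0.13) not. Of 19 genes of cytotoxic granules and NK receptors 6 rose and 2 fell (42.1% passed). Nkg7, a granule membrane protein, measured 8.50, 8.0 and 7.06 without RA and 9.82, 10.06 and 8.97 with RA (1.76 ± 0.16, adjusted p = 0.000336, limma). Ctsw (1.36 ± 0.13), Serpinb9 (1.14 ± 0.17), an inhibitor of granzyme B, Gzmk (0.88 ± 0.16) and Klrd1 (0.87 ± 0.14) rose, whereas Gzmb, the granzyme itself, fell (-0.67 ± 0.15). The other fall was Rab27a (-0.81). Prf1 lay under the filter at 5.31 to 5.48, and so did Gzmc, Gzmd, Gzme and Gzmf. Nkg7, Ctsw and Serpinb9 were robust to leave-out. None of the 6 measured defining genes of NK cells was above the array median on every array, and their summed intensity was 137.1 to 199.9 without RA and 142.7 to 192.9 with RA.

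Of 22 co-stimulatory and inhibitory receptors 5 rose and 1 fell (27.3% passed), Timd2 and Cd96 (1.58 ± 0.14), an adhesion receptor, being robust to leave-out and Icos (-0.50) and Btla (-0.58) not passing. Of 23 TNF family genes 5 rose and 1 fell (26.1% passed), among the rises Fasl, the osteoclast factor Tnfsf11 (1.11 ± 0.17), the death ligand Tnfsf10 (0.86 ± 0.15) and the receptor Tnfrsf25 (0.78 ± 0.13), and Fasl alone was robust to leave-out. Of 32 interferon response genes 4 rose and 1 fell (15.6% passed). The fall was Ifitm3 (-2.38 ± 0.23), an antiviral membrane protein, which measured 8.65, 8.43 and 8.24 without RA and 5.86, 6.90 and 5.43 with RA, while the RNA sensor Ifih1 (1.26 ± 0.16) and Ifit2 (1.23 ± 0.13) rose. These 3 were robust to leave-out. H2-DMa, which loads peptides on MHC class II molecules, rose (1.78 ± 0.16) as the single call among 13 antigen presentation genes (7.69% passed, against 4.94% of all genes tested), with H2-Ab1 (-0.82) and Cd74 (-0.31) not passing.

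**Figure D3:**
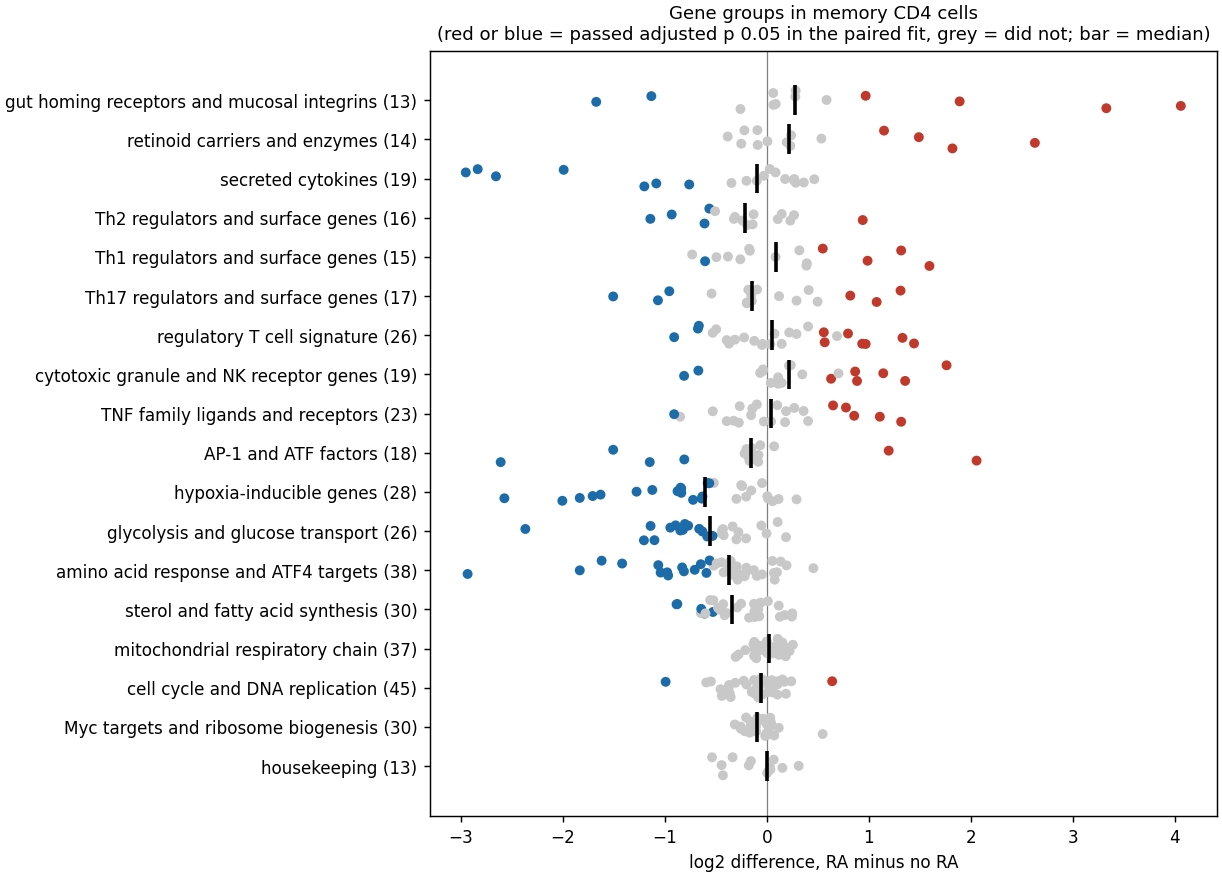
Log2 differences (RA minus no RA, x axis) of the tested genes of 18 groups, with the number tested in parentheses. Red and blue points passed the paired fit as higher and lower, grey points did not, and black bars are group medians. The hypoxia-inducible, glycolysis and amino acid groups have no red point and medians of -0.61, -0.56 and -0.37, and the mitochondrial and housekeeping groups have no coloured point.

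Genes of glycolysis and of the hypoxia response fell together. Hypoxia-inducible factor (HIF) turns on both kinds of gene when prolyl hydroxylases are inactive, and activated T cells use it at normal oxygen as well. Of 26 tested genes of glycolysis and glucose transport 14 fell and 0 rose (median -0.56), and of 28 hypoxia-inducible genes 16 fell and 0 rose (median -0.61), with 4.94% of all genes tested passing in either direction. Both lists were drawn up with earlier results of these data known, so these counts are not an independent test. In all 3 pairs 22 of the 26 and 20 of the 28 were lower with RA. The share of all genes tested that was lower in all 3 pairs is not given here. Among other lists it was 6 of 13 housekeeping genes, 12 of 45 cell cycle genes and 2 of 37 respiratory chain genes. Without the arrays numbered 3 the numbers passing were 4 and 6, all lower. Ndrg1, a hypoxia-induced stress gene, measured 10.06, 10.36 and 10.22 without RA and 7.52, 8.04 and 7.37 with RA, a 5.96-fold fall (-2.57 ± 0.14, adjusted p = 2.2e-05, limma). Aldoc, the aldolase C isoform, measured 8.36, 8.42 and 8.78 without RA and 6.07, 6.20 and 6.18 with RA (-2.37 ± 0.14, adjusted p = 2.29e-05). Bnip3, which promotes removal of mitochondria, measured 12.06, 12.54 and 12.54 without RA and 10.52, 9.95 and 10.66 with RA (-2.01 ± 0.19, adjusted p = 0.000387). In each of these genes the groups lay more than a log2 unit apart.

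The glycolytic falls included transporters and the enzymes of some steps of the pathway. The glucose transporter Slc2a1, or GLUT1, measured 10.67, 10.83 and 11.12 without RA and 9.66, 9.52 and 10.02 with RA (-1.14 ± 0.13, adjusted p = 0.0011, limma), and Slc2a3 fell by 1.21 ± 0.13. Of the enzymes, Aldoa (-0.89 ± 0.13), Tpi1 (-0.80 ± 0.13), the phosphofructokinase genes Pfkl (-0.63 ± 0.12) and Pfkp (-0.58 ± 0.13), their activator Pfkfb3 (-0.82 ± 0.13) and the pyruvate kinase Pkm (-0.53 ± 0.13) fell. Pdk1 (-0.85 ± 0.13), which keeps pyruvate out of mitochondria, the lactate exporter Slc16a3 (-0.77 ± 0.15) and the glycogen genes Pgm1 (-1.10 ± 0.16), Gbe1 (-0.95 ± 0.15) and Gys1 (-0.66 ± 0.14) fell as well. Hk2 (0.00), Ldha (-0.30), Gapdh (-0.34), Pgk1 (-0.43) and Pgam1 (-0.42) did not pass. Slc2a2, a glucose transporter of liver and islets that is no member of the list, rose.

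Other hypoxia genes that fell were Ddit4 (-1.83 ± 0.16), an inhibitor of mTORC1, Selenbp1 (-1.71 ± 0.14, to near background), the adenylate kinase Ak4 (-1.63 ± 0.18), the prolyl hydroxylases Egln3 (-1.28 ± 0.17) and Egln1 (-0.64 ± 0.14), Cited2 (-1.12 ± 0.18), a HIF antagonist, P4ha1 (-0.88 ± 0.15) and P4ha2 (-0.84 ± 0.17), which modify collagen, and Vegfa (-0.85 ± 0.16). Hilpda (-1.30 ± 0.16), a hypoxia-induced lipid droplet protein of another list, fell too. Slc2a1, Slc2a3, Aldoc, Slc16a3, Egln3, Bnip3, Ndrg1, Ddit4, Ak4 and Selenbp1 were the members robust to leave-out. The transcripts of the HIF subunits Hif1a (-0.15 ± 0.15) and Arnt (-0.05) and of the HIF ubiquitin ligase component Vhl (-0.30) did not pass. The 37 tested genes of the respiratory chain had 0 calls and a median of 0.02 (limma, the lowest -0.31 and the highest 0.26).

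**Figure D4:**
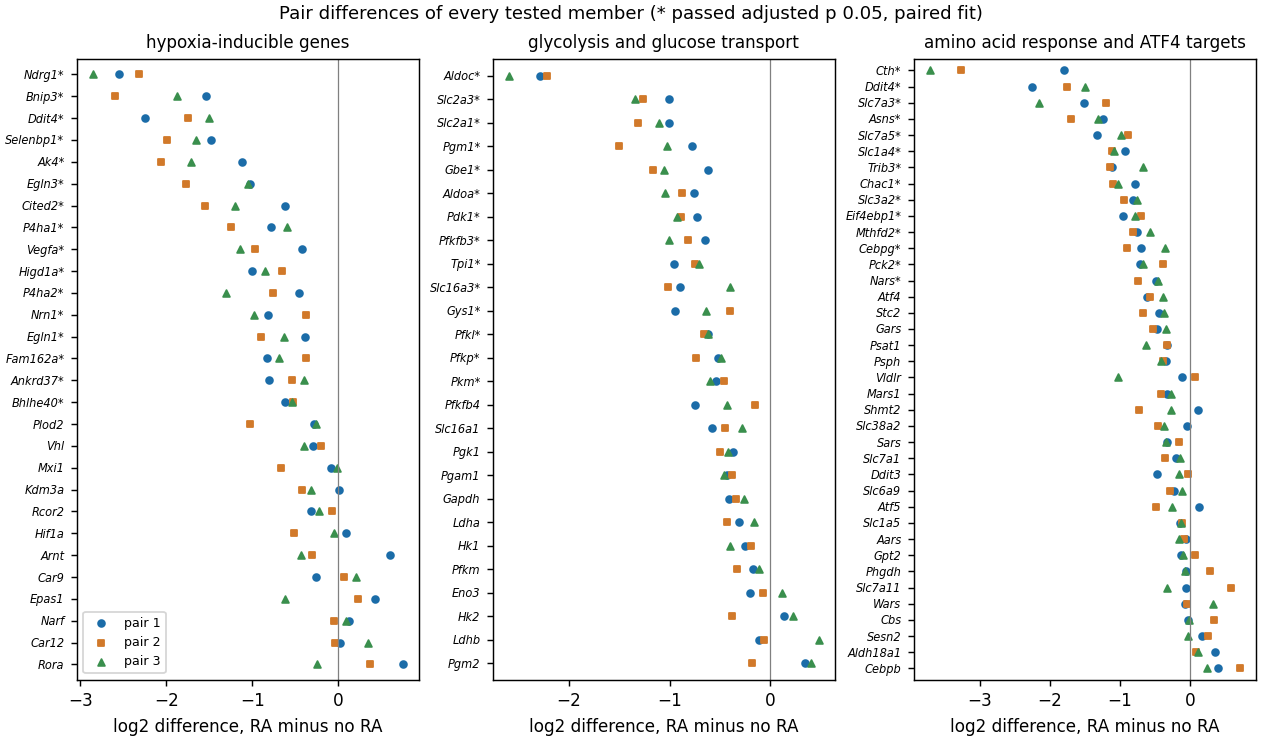
Log2 differences (RA minus no RA, x axis) of each pair for every tested gene of the hypoxia, glycolysis and amino acid groups, sorted by their mean, with an asterisk for genes that passed. From Ndrg1, Aldoc and Cth at the top the differences shrink gradually to genes near 0. No asterisked gene has a pair above 0, since all genes that passed moved one way in all 3 pairs.

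HIF binds the letters ACGTG, which were looked for on both strands in the window from 250 bases before to 50 bases after the start of each gene (RefSeq, GRCm38.p6). They were present for 20 of the 26 genes with a promoter entry among those of the joined hypoxia and glycolysis lists that fell (76.9%) and for 14 of 22 tested members that did not pass (63.6%). The share was 28.7% among all genes tested with an entry and 19.6% among all 32851 windows. Because the lists were drawn up with earlier results known, these shares are descriptive and not a test. The windows of Aldoc (chr11:78322823-78323122, plus strand) and Bnip3 (chr7:138909457-138909756, minus strand) are shown because these genes had among the largest falls, with the matches in capitals, written 5′ to 3′ on the gene's strand. A match is a run of letters and not a measured binding site, and the motifs searched here can share letters at their edges.
Aldoc: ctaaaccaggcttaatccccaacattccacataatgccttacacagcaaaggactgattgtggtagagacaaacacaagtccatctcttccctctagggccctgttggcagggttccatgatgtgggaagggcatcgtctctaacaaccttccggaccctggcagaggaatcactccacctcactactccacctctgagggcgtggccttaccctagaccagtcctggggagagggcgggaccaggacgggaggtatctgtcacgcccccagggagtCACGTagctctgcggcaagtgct
Bnip3: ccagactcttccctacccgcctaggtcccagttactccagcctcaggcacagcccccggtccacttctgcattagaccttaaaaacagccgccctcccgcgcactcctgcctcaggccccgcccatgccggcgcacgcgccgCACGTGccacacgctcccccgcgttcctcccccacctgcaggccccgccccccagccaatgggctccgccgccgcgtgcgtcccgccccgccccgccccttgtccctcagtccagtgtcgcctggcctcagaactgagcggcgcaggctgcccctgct
In Aldoc the printed strand reads CACGT and the searched letters lie on the opposite strand, and in Bnip3 the capitals read the same on both strands.

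Genes of the amino acid response fell as well. ATF4 is a factor whose translation rises when amino acids or folded protein run short, and its targets make and import amino acids. Of 38 tested genes of this list 14 fell and 0 rose (36.8% passed, median -0.37), and 7 of the falls remained without the arrays numbered 3. In all 3 pairs 27 were lower, for which the share of all genes tested is not given here either. This list too was drawn up with earlier results of these data known, so its counts are not an independent test. Cth, which makes cysteine from cystathionine, measured 7.05, 7.23 and 8.28 without RA and 5.25, 3.95 and 4.56 with RA, a 7.65-fold fall (-2.93 ± 0.30, adjusted p = 0.000524, limma). Asns, or asparagine synthetase, measured 9.78, 9.71 and 10.55 without RA and 8.54, 8.0 and 9.24 with RA (-1.42 ± 0.14, adjusted p = 0.000477). The groups did not overlap in either gene. The amino acid transporters Slc7a3 (-1.62 ± 0.18), Slc7a5 (-1.06 ± 0.14), its partner Slc3a2 (-0.83 ± 0.13) and Slc1a4 (-1.04 ± 0.13) fell, as did the pseudokinase Trib3 (-0.98 ± 0.14), Chac1 (-0.97 ± 0.13), which degrades glutathione, the translation repressor Eif4ebp1 (-0.81 ± 0.13) and Mthfd2 (-0.71 ± 0.13) of mitochondrial folate metabolism. Cth, Asns, Slc7a3, Slc7a5, Slc1a4, Trib3 and Ddit4 were robust to leave-out. Atf4 itself measured -0.52 and did not pass, nor did Ddit3 (-0.22), Psat1 (-0.42) or Shmt2 (-0.30). Of 26 genes of the unfolded protein response and heat shock Hspa1b alone passed (-1.19 ± 0.14), while Herpud1 (-0.43) and Xbp1 (0.24) did not. That share of 3.85% is near the 4.94% of all genes tested.

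The letters TGATGNAA of the element bound by ATF4 with its C/EBP partners, searched on both strands, were present in 5 of 9 genes with a promoter entry among the members that fell (55.6%), namely Asns, Chac1, Trib3, Slc1a4 and Pck2. They were present in 4 of 22 members that did not pass (18.2%), in 2.75% of all genes tested and in 3.97% of all windows. These shares are descriptive as well, since the list was drawn up with earlier results known. The windows of Asns (chr6:7693160-7693459, minus strand), Chac1 (chr2:119350992-119351291, plus strand) and Trib3 (chr2:152344011-152344310, minus strand) are shown with the matches in capitals, a match to the opposite strand appearing as its reverse complement.
Asns: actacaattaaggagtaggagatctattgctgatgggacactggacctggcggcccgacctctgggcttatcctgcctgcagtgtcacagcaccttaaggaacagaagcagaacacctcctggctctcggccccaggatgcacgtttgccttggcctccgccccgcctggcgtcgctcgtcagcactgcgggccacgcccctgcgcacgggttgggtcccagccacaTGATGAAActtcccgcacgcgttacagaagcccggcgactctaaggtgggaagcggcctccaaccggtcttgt
Chac1: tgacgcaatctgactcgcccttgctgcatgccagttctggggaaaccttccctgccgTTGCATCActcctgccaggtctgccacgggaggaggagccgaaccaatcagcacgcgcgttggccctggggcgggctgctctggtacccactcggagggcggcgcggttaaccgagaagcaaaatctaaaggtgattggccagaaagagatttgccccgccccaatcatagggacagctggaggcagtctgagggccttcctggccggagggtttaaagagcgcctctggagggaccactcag
Trib3: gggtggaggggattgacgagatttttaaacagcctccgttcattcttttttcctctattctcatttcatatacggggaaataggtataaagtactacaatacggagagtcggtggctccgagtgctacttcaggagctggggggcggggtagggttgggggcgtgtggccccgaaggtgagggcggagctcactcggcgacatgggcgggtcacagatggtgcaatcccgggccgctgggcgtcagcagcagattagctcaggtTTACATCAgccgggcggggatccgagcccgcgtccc

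Metallothioneins, which bind zinc and copper, fell. Mt1 measured 10.76, 10.53 and 10.03 without RA and 8.39, 8.04 and 7.42 with RA (-2.49 ± 0.13, adjusted p = 1.16e-05, limma), and Mt2 measured 9.47, 9.02 and 10.52 without RA and 7.86, 8.04 and 8.28 with RA (-1.61 ± 0.21). Both fell without overlap and were robust to leave-out. Of 18 genes of metal handling these and the zinc importer Slc39a10 (-0.87 ± 0.20) passed (16.7%), whereas the zinc exporter Slc30a1 (-0.30) and the zinc importer Slc39a8 (0.69) did not. The metal response letters TGCACNC or TGCGCNC, searched on both strands, were in 8 of 13 members with an entry (61.5%), 39.4% of all genes tested and 25.7% of all windows. Of these 8 members Mt1 and Mt2 fell, and Slc30a1, Slc30a4, Slc30a5, Slc39a8, Tfrc and Atp7a did not pass. The letters were also in 57.7% of the hypoxia and glycolysis members that fell and in 54.5% of those that did not. These shares are descriptive, since the lists were drawn up with earlier results known. The window of Mt1 (chr8:94178839-94179138, plus strand) holds 3 matches to the metal response letters, in capitals.
Mt1: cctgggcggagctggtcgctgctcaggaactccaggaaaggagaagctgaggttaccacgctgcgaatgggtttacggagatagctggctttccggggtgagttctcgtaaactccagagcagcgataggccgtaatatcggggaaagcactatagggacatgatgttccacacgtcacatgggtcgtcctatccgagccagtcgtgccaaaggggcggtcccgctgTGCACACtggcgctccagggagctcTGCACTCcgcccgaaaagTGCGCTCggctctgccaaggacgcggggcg

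RA receptors bind direct repeats of a half-site such as AGGTCA. Repeats of the element AGGTCA (with G also allowed at base 1 and T at base 3) on either strand spaced by 1, 2 or 5 bases were found in 0 of the 100 windows available for genes that rose at least 2-fold, and in 0.256%, 0.113% and 0.0409% of all genes tested. These letters are rare in windows of this length, and finding none says only that they are not in these windows.

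Other metabolic and growth groups differed in the share that passed. Of 30 sterol and fatty acid synthesis genes 5 fell and 0 rose (16.7% passed against 4.94% of all genes tested, median -0.34), among them Lss (-0.88 ± 0.13) and Msmo1 (-0.89 ± 0.19), and none passed without the arrays numbered 3. Of 45 cell cycle genes 4.44% passed. Of these 1 rose, Cdkn2c (0.64 ± 0.13), an inhibitor of the kinases that start the cycle, and 1 fell, Cdk6 (-0.99 ± 0.18), its target kinase, neither of which passed without the arrays numbered 3, while Mki67 (0.11) and Rrm2 (-0.37) did not pass. The 30 Myc target and ribosome genes and the 13 housekeeping genes had 0 calls, with medians of -0.10 and 0.00 (limma, 1898 of all genes with an unadjusted p under 0.05). Of 18 S100, annexin and galectin genes 4 fell and 1 rose (27.8% passed), with Anxa2 (-1.92 ± 0.13), Anxa3 (-1.28 ± 0.16) and the filament gene Vim (-1.03 ± 0.13) among the falls, and Vim did not pass without the arrays numbered 3. Of 22 apoptosis genes (13.6% passed) Bak1 (0.86 ± 0.19), a killer protein of mitochondria, rose and Gadd45g (-0.83 ± 0.14) and Cflar (-0.63 ± 0.13, with 1 probe set of opposite sign) fell, of which Bak1 alone was robust to leave-out.

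The RA response of memory cells was set against that of Foxp3+ cells from the same series. These came from Foxp3- spleen CD4 T cells of C57BL/6 Foxp3/GFP reporter mice, cultured for 5 days with spleen DC, anti-CD3, IL-2 and TGF-beta at 0.6 ng/ml with or without 100 nM RA and then sorted as GFP+ (2 arrays each, no array shared with the memory comparison). Cell type, time, stimulus, TGF-beta dose and the presence of DC all differ between the experiments and cannot be told apart. In a joint fit over 12412 genes, 667 passed for RA in memory cells and 172 (1.39%) for RA in Foxp3+ cells. Of these 79 passed in both, 11.8% of the memory calls and 45.9% of the Foxp3+ calls, and 72 had the same direction, 43 up and 29 down. The difference between the 2 responses itself passed for 179 genes (1.44%), 98 more positive in memory cells (0.79%) and 81 more negative (0.653%). Without the pair term 3 differences passed, and without memory pair 3 there were 92. Of those named here, Cyp26b1, Nrip1 and Stat4 did not pass without memory pair 1, and Ahr, Stat4 and Mt1 did not pass without memory pair 3.

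Shared rises included Lztfl1 (3.12 in memory and 2.79 in Foxp3+ cells), Dhrs3 (2.63 and 2.36) and Ccr9 (3.33 and 5.29, both from near background), and for none of the 3 did the difference pass. Cyp26b1 rose in both and more in Foxp3+ cells (difference -1.23 ± 0.22, adjusted p = 0.0229, limma). Itga4 rose in both and more in memory cells, 4.06 against 2.11 (difference 1.95 ± 0.29, adjusted p = 0.00843). Gfi1, Hic1 and Fam102b likewise rose in both, with smaller values in Foxp3+ cells of 0.91, 0.92 and 1.02. Timd2 rose by 4.11 in memory cells against 0.08, which did not pass (difference 4.03 ± 0.19, adjusted p = 7.18e-06). Nkg7 rose in memory cells and fell in Foxp3+ cells (-1.12), as did Klrd1 (-1.43). Ifitm3 fell in both (-2.38 and -3.96), and Gpr15 fell in Foxp3+ cells alone (-2.13, difference 2.20 ± 0.24, adjusted p = 0.00168).

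Il10 differed by -2.36 ± 0.27 between the responses (adjusted p = 0.00208, limma), with -0.48 in Foxp3+ cells, which did not pass. For Il4 and Il9 the difference passed as well, but both lay near background in Foxp3+ cells with and without RA, where a fall could not be measured. Ifng fell in memory cells and had -1.60 in Foxp3+ cells, with no difference that passed. In the hypoxia, glycolysis and amino acid lists 6 of 29, 4 of 27 and 7 of 38 genes had a more negative difference that passed. This held for 0.653% of all genes in the joint fit, and 0 list members had a more positive one. These lists were drawn up with earlier results of these data known, so the counts are not an independent test. The list medians in Foxp3+ cells were -0.08, -0.11 and -0.03. Ndrg1 had -2.57 in memory cells and -0.21 in Foxp3+ cells (difference -2.36 ± 0.22, adjusted p = 0.000978), and Bnip3 -2.01 and -0.05. Mt1 fell in both (-2.49 and -1.37), and so did Aldoc (-2.37 and -0.82). Of 15 Th1 genes 5 had a more positive difference in memory cells, against 0.79% of all genes. Among them was Stat4 (1.08 ± 0.20), which had -0.09 in Foxp3+ cells.

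**Figure D5:**
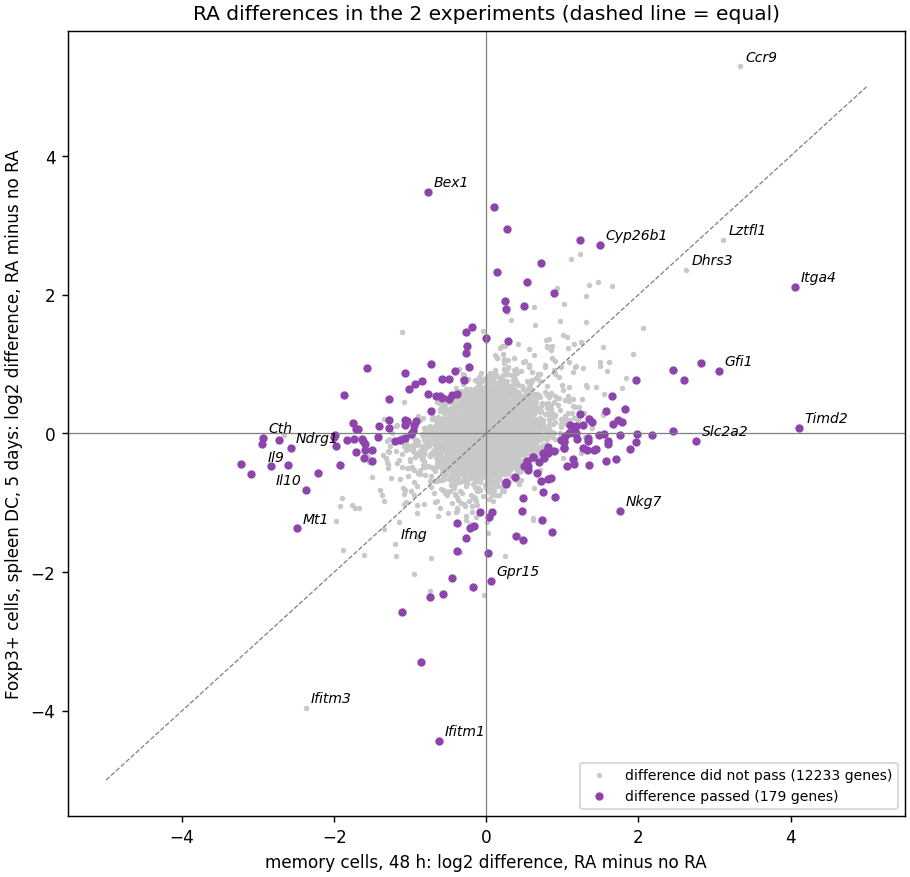
Log2 difference with RA in memory cells at 48 h (x axis) against that in Foxp3+ cells after 5 days with spleen DC (y axis), 1 point per gene of 12412 in the joint fit. Purple points are the 179 genes whose difference between the responses passed, and the dashed line marks equal responses. Lztfl1 and Dhrs3 lie near the line, Timd2, Slc2a2, Il9 and Ndrg1 lie along the horizontal axis, and Bex1 and Ifitm1 lie along the vertical one.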

How the data were processed

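RNA of sorted mouse CD4 T cells, amplified in 2 rounds per the labels' protocols, was hybridised to Affymetrix M430v2 arrays. The deposited table holds linear intensity values made by the authors with RMA in GenePattern, per the labels, for 45101 probe sets on 17 arrays. Software versions were not given in the sources used here. Array medians lay between 5.88 and 5.98 after log2 was taken from the deposited intensity values, with no pseudocount and no further scaling.

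Probe sets with 1 gene symbol in the platform table (34958, against 932 with several and 9211 with none, which were left out) gave 18194 genes. Each gene is its probe set with the highest mean over 17 arrays, cross-hybridising sets passed over where possible. A gene was tested if above the array median on at least 2 of the 6 arrays (12062 genes). Control or RA values more than 1 log2 unit under the median on every array of a group are called near background. The number of arrays limits the precision.

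The main test was limma 3.58.1 (R 4.3.3, lmFit and eBayes) with the array number as a block, Benjamini-Hochberg adjusted at 0.05, with 2 residual and 7.23 prior degrees of freedom (4 and 2.59 without the block). The pairing comes from the labels' numbers. Residuals of same-numbered arrays correlated at 0.78, 0.65 and 0.94. Arrays numbered 1 and 2 correlated as well across numbers (0.65 and 0.79), and those numbered 3 with the others at -0.73 to -0.88, so the block mostly separates number 3. The joint fit of 10 arrays had 3 residual and 7.66 prior degrees of freedom. Nothing in the labels says whether the 2 arrays of a pair came from the same mice, so p-values refer to these pairs only. With 2 residual against 7.23 prior degrees of freedom, each gene's variance in the main test is largely borrowed from other genes. The p-values and SE thus reflect more than the gene's own spread between pairs. The scripts were tested on simulated data.

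The members and gene lists were chosen with earlier results of these data known. Named genes are the 25 largest rises and 25 largest falls that passed in all pairs (provisional names passed over), list members, a set always named, and for the difference between experiments the 10 largest each way. Alternatives are given at the end, and 2 were added after the data were seen: leaving out number 3 without the block, and joining numbers 1 and 2 in the block. Some genes of the lists are not reported here.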

Additional observations from a re-analysis of the deposited data

Results flagged for a closer look

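The genes below had an RA response in memory cells that differed from that in Foxp3+ cells by the test of the difference itself (memory minus Foxp3+, log2, limma with the pairs as blocks, adjusted p under 0.05). The experiments differ in cells, time, stimulus and DC, which cannot be told apart, so no source is named for any of these differences.

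More positive in memory cells were Timd2 (4.03), Nkg7 (2.89), Slc2a2 (2.87), Ntn4 (2.41), Klrd1 (2.29), Mndal (2.20), Gfi1 (2.15), Itga4 (1.95), Nrip1 (1.82), Fam102b (1.81), Hic1 (1.54) and Stat4 (1.08). Of 3 further genes of this direction, Ifitm1 differed by 3.81, having fallen by 4.43 log2 units in Foxp3+ cells against -0.62 in memory cells. Endou differed by 2.44 and fell in both, -3.30 in Foxp3+ and -0.86 in memory cells, and Gpr15 differed by 2.20.

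More negative in memory cells were Cth (-2.87), Il9 (-2.81), Pkib (-2.79), Alpk2 (-2.63), Armcx4 (-2.51), Ier3 (-2.51), Jcad (-2.42), Ndrg1 (-2.36), Il10 (-2.36), Il4 (-1.96), Bnip3 (-1.95), Satb1 (-1.65), Aldoc (-1.55), Ahr (-1.26), Cyp26b1 (-1.23) and Mt1 (-1.12). Bex1 (-4.25), Gda (-3.17) and Cracdl (-2.67) rose in Foxp3+ cells, by 3.48, 3.27 and 2.95, and Bex1 also fell in memory cells (-0.77).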

How the results depend on the processing

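With 3 pairs and 2 residual degrees of freedom, calls rest on the replicate block. Without the block 10 genes were called in place of 596, all 10 at least 2-fold, and the difference between experiments had 3 calls in place of 179 and RA in Foxp3+ cells 11 in place of 172. Without the block and without the arrays numbered 3, an alternative added after seeing the data, 202 were called, 197 of them among the 596. Each fit lacking a pair has 1 residual degree of freedom and borrows its variance from other genes (75.8, 20.9 and 6.33 prior degrees of freedom without pairs 1, 2 and 3), so passing without pair 1 or 2 says little about one gene's own spread. With a memory pair left out the memory count ran from 208 (without pair 3) to 819, the difference from 92 to 192 and RA in Foxp3+ cells from 116 to 304. No Foxp3+ array was left out in these fits, so dependence on the Foxp3+ pairs was not examined. The count of at least 2-fold calls fell from 226 to 150 with log2 of the value plus 32 and to 147 with the mean of all probe sets. Joining numbers 1 and 2 in the block, also added later, left 531. Quantile normalization, median-centring, other filters, variance trend, robust variances and one fit over 17 arrays kept both memory counts over all genes within 1.5 times, as did quantile normalization, median-centring, no filter and log2 of the value plus 32 for the difference and RA in Foxp3+ cells, for which the other settings were not run. Counts of single gene lists moved more: of 82 such counts, 3 left that range with quantile normalization, 4 with no filter, 6 with the stricter filter, 3 with the variance trend and 13 with one fit over 17 arrays, and 0 with median-centring or robust variances. For example, adhesion genes called higher went from 2 to 1 with no filter and to 4 with the stricter filter, and chemokine receptor and egress genes called lower from 3 to 1 with one fit. No called gene named in the report changed direction, but most alternatives could not change one. The block, the filters, the variance settings, one fit over 17 arrays and joined numbers leave the estimate as it is. All 3 pairs of a called gene moved one way, so neither leaving out a pair nor adding 32 can turn it. Only quantile normalization, median-centring and the mean of all probe sets could have done so. Among genes that did not pass, signs turned with the mean of all probe sets for Arnt (0.13), Maf (0.26) and Smad3 (-0.0070), with log2 of the value plus 32 for Hk2 (0.0067), and with quantile normalization for Myc (-0.020). With a pair left out the ranges were -0.37 to 0.15 for Arnt, -0.039 to 0.43 for Csf2, -0.24 to 0.070 for Ctla4, -0.28 to 0.025 for Hif1a, -0.12 to 0.19 for Hk2, -0.41 to 0.063 for Maf, -0.016 to 0.18 for Mki67, -0.18 to 0.14 for Myc and -0.083 to 0.040 for Rarg, and without the block and pair 3 Arnt was 0.15, Csf2 -0.039, Ctla4 0.044 and Myc -0.18. The difference between experiments ran from -0.24 to 0.58 for Dhrs3 with a memory pair left out and was -0.020 for Ifng with log2 of the value plus 32. The causes were not tested.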

Other observations

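Neighbours of Ccr9, Il4, Il10 and Mndal on the chromosome (protein-coding order in GRCm38.p6) were looked up after values were seen. Their values are given without a test of position, and the neighbours of other large rises and falls were not looked up. Lztfl1 (3.12 ± 0.13) is the next gene to Ccr9 (3.33 ± 0.28), and both rose in memory cells and in Foxp3+ cells (2.79 and 5.29). Fyco1 (0.13 ± 0.13) on the other side of Ccr9 and Cxcr6 (0.50 ± 0.17) beyond it did not pass. Il4 (-1.99 ± 0.15) lies between Kif3a, a kinesin motor subunit (-0.92 ± 0.14), and Il13 (-0.76 ± 0.13), and all 3 fell, while Rad50 (-0.10 ± 0.14), next after Il13, and Septin8 (0.06 ± 0.16), beyond Kif3a, did not pass. Near Il10 (-2.84 ± 0.13), Il24 (-1.08 ± 0.15) and the IgM receptor gene Fcmr (-0.95 ± 0.13) fell, whereas Il20 (0.12 ± 0.13) between them and Il10 and Mapkapk2 (-0.47 ± 0.14) on the other side did not pass. Of the interferon-inducible cluster around Mndal (2.18 ± 0.19), Ifi209 (1.03 ± 0.15) rose as well and Ifi203 (-0.04 ± 0.13) did not pass. Of these genes Ccr9 and Il10 passed without the pair term.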
